A study of Homo sapiens with 6 samples.

Results

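The dual-specificity phosphatases (DUSPs) examined here are 10 genes, DUSP1, DUSP2, DUSP4, DUSP5, DUSP6, DUSP7, DUSP8, DUSP10, DUSP14 and DUSP16. Their probe sets were taken by name, as every probe set that the platform annotation assigns to exactly 1 of these genes. The genes themselves, and the gene lists compared below, were chosen with earlier results of these data known. Counts set beside array-wide shares are therefore descriptive. This gave 22 probe sets of the 41091 that name 1 gene, and 10 genes of the 19775 that have such a probe set. In all, 54613 probe sets were tested. Gene expression was measured in ONS-76, an established human medulloblastoma cell line, on 6 Affymetrix U133 Plus 2.0 arrays. The siKDM1A group (3 arrays) came from cells transfected with siRNA against KDM1A, a histone demethylase also known as LSD1, and the control group (3 arrays) from cells given transfection reagent alone. The transfections within a group were independent of each other, per the study's methods. The sample labels name the target KDM5A, with LSD1 beside it, and give a harvest at 48 h, while the study's text names KDM1A and a later time. Both groups are 1 cell line, and the control cells received no siRNA, so losing KDM1A and receiving an siRNA cannot be told apart.

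DUSPs switch off MAP kinases by removing the phosphates from the threonine and the tyrosine of the kinase activation loop. The family is commonly sorted by the kinases its members prefer and by where in the cell they act. DUSP5, in the nucleus, and DUSP6 and DUSP7, in the cytoplasm, act mainly on the growth factor kinase ERK. DUSP8, DUSP10 and DUSP16 prefer the stress kinases JNK and p38, and DUSP1, DUSP2 and DUSP4 are inducible nuclear enzymes with a broader range that takes in ERK, JNK and p38 to differing degrees. DUSP14 is a small member without the amino-terminal kinase interaction motif. Several of these genes are themselves switched on by MAP kinase signaling and form negative feedback loops. The arrays measure RNA and say nothing of phosphatase protein or activity.

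The targeted gene was checked first. KDM1A had log2 values of 9.50, 9.57 and 9.49 in control replicates a, b and c and of 6.25, 6.34 and 6.31 in siKDM1A replicates a, b and c, a 9.33-fold lower level (limma adjusted p = 7.12e-07). None of 5 KDM5A probe sets passed the test, and its brightest had a log2 difference of -0.27 (limma adjusted p = 0.138). The KDM5A probe set with the lowest p read 6.67, 6.76 and 6.65 in control and 6.12, 6.41 and 6.38 in siKDM1A cells, all below control, with a difference of -0.39 (limma adjusted p = 0.0563). Array medians lay between 5.09 and 5.16 on the log2 scale, and the correlation over all probe sets was 0.994 to 0.998 within groups and 0.991 to 0.994 between them. Of 13 measured neural progenitor and granule neuron genes, 9 lay above the array median on all 6 arrays. OTX2 and EOMES lay below the lower quartile on all of them. Also above the median on all arrays were 3 of 4 epithelial, 3 of 6 fibroblast, 2 of 4 endothelial and 1 of 4 measured glial markers. None of 3 measured immune markers lay above the median on all arrays. COL3A1, a fibroblast collagen, and MAP2, a neuronal microtubule protein, were higher in siKDM1A cells, by 2.13 and 1.12 on the log2 scale, and SOX2, ZIC1 and ZIC2, neural progenitor transcription factors, were lower. TUBB3, of the same list as MAP2, had a difference of -0.19 and did not pass (limma adjusted p = 0.327). Of the 13 neural genes 1 was higher and 3 were lower, beside 3.45% higher and 5.46% lower over all genes. In all, 1 of 6 fibroblast, 1 of 4 endothelial, 0 of 4 measured glial, 0 of 4 epithelial and 0 of 3 measured immune markers passed the test, both upward. The part of these shifts in the DUSP values was not tested, and in bulk RNA fewer cells of a type and less RNA per cell cannot be told apart.

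Of the 22 DUSP probe sets 4 passed the test, all upward. DUSP5 rose 3.11-fold, both probe sets of DUSP10 rose 1.63-fold and 1.51-fold, and the dimmer of the 2 DUSP8 probe sets rose 1.37-fold. No DUSP probe set fell by limma at an adjusted p under 0.05, and 18 of 22 passed in neither direction. Over the whole array 2.18% of the probe sets were higher and 3.73% lower by this test. At an unadjusted p under 0.05, 8 DUSP probe sets were higher and 1 was lower. All 3 siKDM1A arrays lay above all 3 control arrays on 10 of the 22 probe sets and below them on 1, whereas 11.1% of all probe sets had the first arrangement and 13.4% the second. The difference was positive on 19 of 22 probe sets, with a median of 0.18 on the log2 scale and 0.17 without DUSP5, while 53.5% of all probe sets had a positive difference, with a median of 0.014. With 1 probe set per gene, the brightest, 2 of 10 DUSP genes were higher (DUSP5 and DUSP10) and 0 lower, beside 3.45% higher and 5.46% lower among 19775 genes. Probe sets of 1 gene are not independent of each other, and precision is limited by having only 3 arrays in a group. Without control replicate b or c the count of higher DUSP probe sets was 2.

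**Figure D1:**
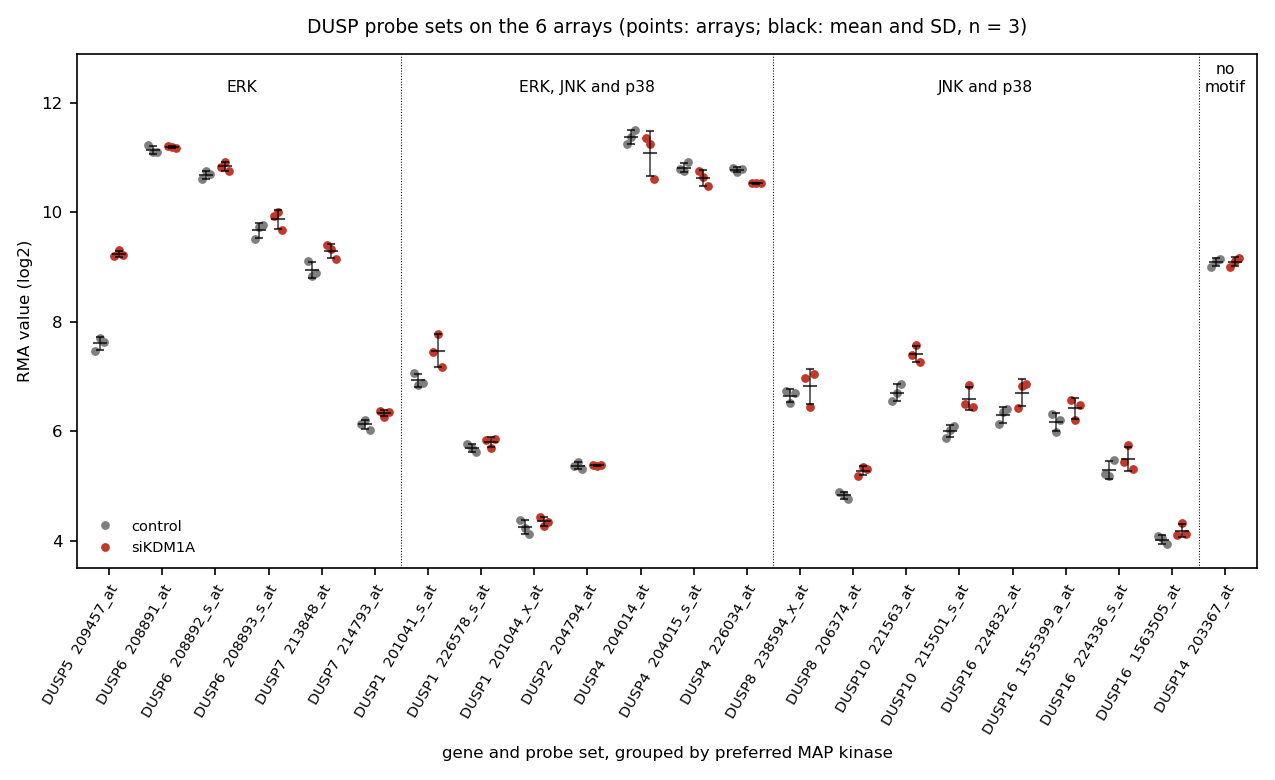
Log2 value (RMA) of each of the 22 DUSP probe sets on the 3 control arrays (grey) and the 3 siKDM1A arrays (red), with the mean and SD of each group in black, ordered by preferred MAP kinase and, within a gene, from the brightest probe set to the dimmest. DUSP5 shows the widest separation, from at most 7.71 in control to at least 9.20 in siKDM1A cells, and the 3 probe sets of DUSP4 show lower siKDM1A means.

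**Figure D2:**
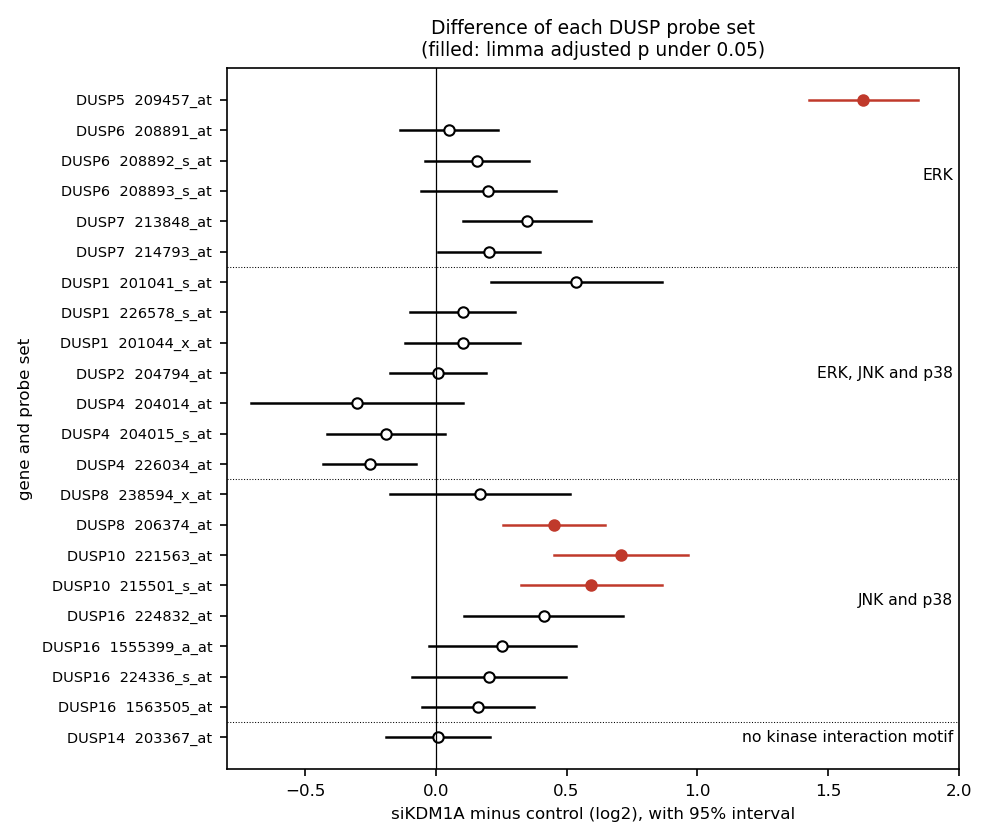
Difference of each DUSP probe set between the groups (siKDM1A minus control, log2) with its 95% interval from limma. Filled red points passed the test at an adjusted p under 0.05, and these are DUSP5, both DUSP10 probe sets and 1 of 2 DUSP8 probe sets.

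Among the phosphatases that prefer ERK, DUSP5 rose, while none of the 5 probe sets of DUSP6 and DUSP7 passed. The nuclear ERK phosphatase DUSP5 had log2 values of 7.47, 7.71 and 7.64 in control and of 9.20, 9.31 and 9.22 in siKDM1A cells. The groups were 1.49 apart at their nearest arrays, which is many times the spread within either group. The difference was 1.64 on the log2 scale (standard error 0.09, 95% interval 1.43 to 1.85), a 3.11-fold rise with an interval of 2.69 to 3.59 (limma adjusted p = 4.65e-05). Of all 54613 probe sets this was number 24 in order of limma's p and number 52 in order of the size of the rise. The related pseudogene DUSP5P1 has a probe set of its own. Its values were 4.66, 4.52 and 4.80 in control and 4.26, 4.43 and 4.15 in siKDM1A cells, below the array median throughout, with a difference of -0.38 (limma adjusted p = 0.0851).

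DUSP6, a cytoplasmic ERK phosphatase and a classical marker of ERK activity, lay well above the array median on all 3 probe sets in both groups. The brightest read 11.23, 11.11 and 11.10 in control and 11.21, 11.20 and 11.18 in siKDM1A cells. The groups overlapped, the difference was 0.05 on the log2 scale, and its 95% interval ran from -0.14 to 0.24 (limma adjusted p = 0.813). The other DUSP6 probe sets had differences of 0.16 (the middle one) and 0.20 (the dimmest), both with a limma adjusted p near 0.40. On the middle one all siKDM1A arrays lay above the control arrays, but the nearest arrays were only 0.011 apart. DUSP7, the close cytoplasmic relative of DUSP6, had its brighter probe set at 9.11, 8.83 and 8.89 in control and at 9.40, 9.34 and 9.15 in siKDM1A cells. These groups did not overlap, and the difference was 0.35 (95% interval 0.10 to 0.59), which did not pass the test (limma adjusted p = 0.109). The dimmer DUSP7 probe set was also higher on every siKDM1A array, with a difference of 0.20 (limma adjusted p = 0.247). In all, 1 of 6 probe sets of these ERK phosphatases passed the test, and on 4 of 6 every siKDM1A array lay above control, beside 2.18% and 11.1% of all probe sets.

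The phosphatases that prefer JNK and p38 had positive differences on all 8 of their probe sets, with a median of 0.33, and 3 of the 8 passed the test. Over the whole array 2.18% of the probe sets were higher and 53.5% had a positive difference, with a median of 0.014. DUSP10, which acts on JNK and p38 in nucleus and cytoplasm, was the only one of these genes with every probe set past the threshold. Its brighter probe set read 6.55, 6.70 and 6.86 in control and 7.39, 7.57 and 7.27 in siKDM1A cells. The lowest siKDM1A array lay 0.41 above the highest control array, and the difference was 0.71 (standard error 0.11, 95% interval 0.45 to 0.96, limma adjusted p = 0.00725). The other probe set read 5.88, 6.02 and 6.09 in control and 6.50, 6.84 and 6.45 in siKDM1A cells. Here too the groups were apart, by 0.35, and the difference was 0.60 (95% interval 0.33 to 0.86, limma adjusted p = 0.0204). Without control replicate a, b or c this second result had limma adjusted p values of 0.0769, 0.0654 and 0.0593, while the brighter probe set stayed under 0.05 with any 1 array left out.

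DUSP8, another phosphatase of JNK and p38 that is best known from brain and heart, gave a different answer on each of its probe sets. The dimmer one had values of 4.88, 4.83 and 4.77 in control and of 5.18, 5.34 and 5.31 in siKDM1A cells. It moved from below the array median in the control cells to above it in the siKDM1A cells, with a difference of 0.45 (standard error 0.09, 95% interval 0.26 to 0.65, limma adjusted p = 0.0171). The call was lost without control replicate b (limma adjusted p = 0.0672), control replicate c (0.0924) or siKDM1A replicate b (0.0533). The brighter one is of a type whose probes may match other transcripts, and it had 6.74, 6.52 and 6.70 in control and 6.98, 6.45 and 7.04 in siKDM1A cells. Replicate b of the siKDM1A group was the lowest of all 6 arrays there, and the difference of 0.17 had an interval of -0.18 to 0.51 (limma adjusted p = 0.624). Without that array the difference was 0.36, with a limma adjusted p of 0.109.

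DUSP16, which carries JNK phosphatase activity between nucleus and cytoplasm, had 4 probe sets, none of which passed the test. The brightest read 6.13, 6.36 and 6.40 in control and 6.42, 6.83 and 6.87 in siKDM1A cells. The groups touched closely, with replicate a of siKDM1A only 0.022 above control replicate c, and the difference was 0.41 (95% interval 0.11 to 0.71, limma adjusted p = 0.125). Without siKDM1A replicate a the difference was 0.56 and passed the test (limma adjusted p = 0.0338). The other 3 DUSP16 probe sets had differences of 0.25, 0.20 and 0.16 (limma adjusted p from 0.318 to 0.46), and the dimmest of them lay below the array median on all arrays.

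The promoters of DUSP8, DUSP1 and DUSP10 (the first of its 2 windows) are shown because DUSP8 and DUSP1 carry the palindromic cAMP response element, the binding sequence of CREB and ATF factors, and the DUSP10 window does not. RefSeq promoters on GRCh38.p14 were taken by symbol for 8 of 10 members, in 9 windows, and searched over the 250 bases before the annotated start. No window of DUSP4 or DUSP5 was searched, so the motif results leave these genes out. In the runs below, written 5′ to 3′ on the gene's own strand, capitals mark TGACGTCA or its core TGACGT. They lie at chr11:1572272-1572521 (minus strand) for DUSP8, chr5:172771196-172771445 (minus strand) for DUSP1 and chr1:221742090-221742339 (minus strand) for DUSP10.
DUSP8: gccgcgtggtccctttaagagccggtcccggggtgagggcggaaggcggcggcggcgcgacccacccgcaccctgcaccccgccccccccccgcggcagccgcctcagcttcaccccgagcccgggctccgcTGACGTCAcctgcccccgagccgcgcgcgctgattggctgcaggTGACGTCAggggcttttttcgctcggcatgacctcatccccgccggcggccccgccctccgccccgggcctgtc
DUSP1: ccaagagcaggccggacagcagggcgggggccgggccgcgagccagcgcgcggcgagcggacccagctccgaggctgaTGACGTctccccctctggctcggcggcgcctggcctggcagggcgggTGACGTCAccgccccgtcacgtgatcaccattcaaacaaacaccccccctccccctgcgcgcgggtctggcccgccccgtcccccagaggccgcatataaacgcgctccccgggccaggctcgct
DUSP10: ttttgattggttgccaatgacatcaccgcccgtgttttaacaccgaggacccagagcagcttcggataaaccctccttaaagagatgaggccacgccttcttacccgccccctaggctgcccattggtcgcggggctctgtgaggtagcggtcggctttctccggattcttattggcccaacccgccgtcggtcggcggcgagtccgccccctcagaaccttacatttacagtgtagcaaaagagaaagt
The full 8-base element occurred at 2 places in the DUSP8 window, from base -118 to -111 and from -74 to -67 before the start, and at 1 place in DUSP1, from -125 to -118. DUSP1 held 1 further core from -172 to -167. Of 35116 RefSeq windows of the same length, 1.65% held the full element on either strand, 0.0541% held it at 2 or more places, and 7.1% held the core, which lies within the full element. Neither letter string occurred in the windows of DUSP2, DUSP6, DUSP7, DUSP10, DUSP14 or DUSP16. The AP-1 sequence TGANTCA, found in 6.57% of all windows, and the CArG box of serum response factor, found in 1.16%, occurred in none of the 9 DUSP windows. An NF-kB motif, found in 9.96% of all windows, occurred in DUSP7 alone, from base -158 to -149. The windows are short, and a match to letters is not a measured binding site.

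None of the 7 probe sets of the broad nuclear phosphatases DUSP1, DUSP2 and DUSP4 passed the test, and the signs of their differences were mixed. DUSP1, an immediate early gene that dephosphorylates p38, JNK and ERK, had its brightest probe set at 7.06, 6.84 and 6.89 in control and at 7.45, 7.78 and 7.18 in siKDM1A cells. All siKDM1A arrays lay above the control arrays, with replicate b far above replicate c. The difference was 0.54 (standard error 0.15, 95% interval 0.21 to 0.87), and the limma adjusted p of 0.0672 missed the threshold. It passed without siKDM1A replicate c (limma adjusted p = 0.0234), under cyclic loess (0.0492) and with an intensity trend and robust prior (0.0429). The dimmer DUSP1 probe sets both had a difference of 0.10 with overlapping groups, and the dimmest lay below the array median on all arrays. The marked promoter element of DUSP1 shown above stands beside a gene whose change rests on 1 of 3 probe sets and did not pass.

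DUSP2, a nuclear phosphatase of ERK and p38 best known from activated lymphocytes, read 5.37, 5.43 and 5.31 in control and 5.38, 5.37 and 5.39 in siKDM1A cells. The siKDM1A values lay within the control range, and the difference was 0.007 on the log2 scale, with an interval of -0.18 to 0.19 (limma adjusted p = 0.978). Its sign turned under median centring, under cyclic loess and without control replicate c. DUSP4, the nuclear relative of DUSP1 that acts on ERK and JNK, was the only member with negative differences, and it had them on all 3 probe sets. The dimmest of these read 10.82, 10.74 and 10.79 in control and 10.53 on each siKDM1A array. Those groups were 0.21 apart, and the difference of -0.25 had an interval of -0.43 to -0.074 (limma adjusted p = 0.111). It passed with an intensity trend and robust prior (limma adjusted p = 0.0251) and in the 1-way ANOVA that the study's methods name (adjusted p = 0.0425), which takes the spread from these 6 arrays alone (SD 0.040 in control and 0.0043 in siKDM1A cells). The brightest DUSP4 probe set read 11.25, 11.38 and 11.51 in control and 11.37, 11.25 and 10.61 in siKDM1A cells. Replicate c stood low and the others overlapped with control, so that the difference of -0.30 (limma adjusted p = 0.423) was -0.069 without that array. The remaining one had a difference of -0.19 (limma adjusted p = 0.358), also with replicate c lowest.

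DUSP14, the small phosphatase without the kinase interaction motif, had, with DUSP2, the smallest differences among the members. Its values were 9.01, 9.11 and 9.15 in control and 9.01, 9.12 and 9.17 in siKDM1A cells. The groups covered nearly the same range, and the difference of 0.008 had a 95% interval of -0.19 to 0.21 (limma adjusted p = 0.977). The upper end of this interval is a 1.15-fold rise. The sign of so small a value turned under median centring and without control replicate a, siKDM1A replicate b or siKDM1A replicate c.

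Of the 4 rises, that of DUSP5 passed in all 12 alternative settings, with limma or ANOVA adjusted p values from 3.16e-06 to 0.0255. The brighter DUSP10 probe set passed in 11 of 12, all but the 1-way ANOVA (adjusted p = 0.108). The dimmer DUSP10 probe set and DUSP8 each passed in 8 of 12, and neither passed the ANOVA (adjusted p = 0.166 and 0.0734).

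**Figure D3:**
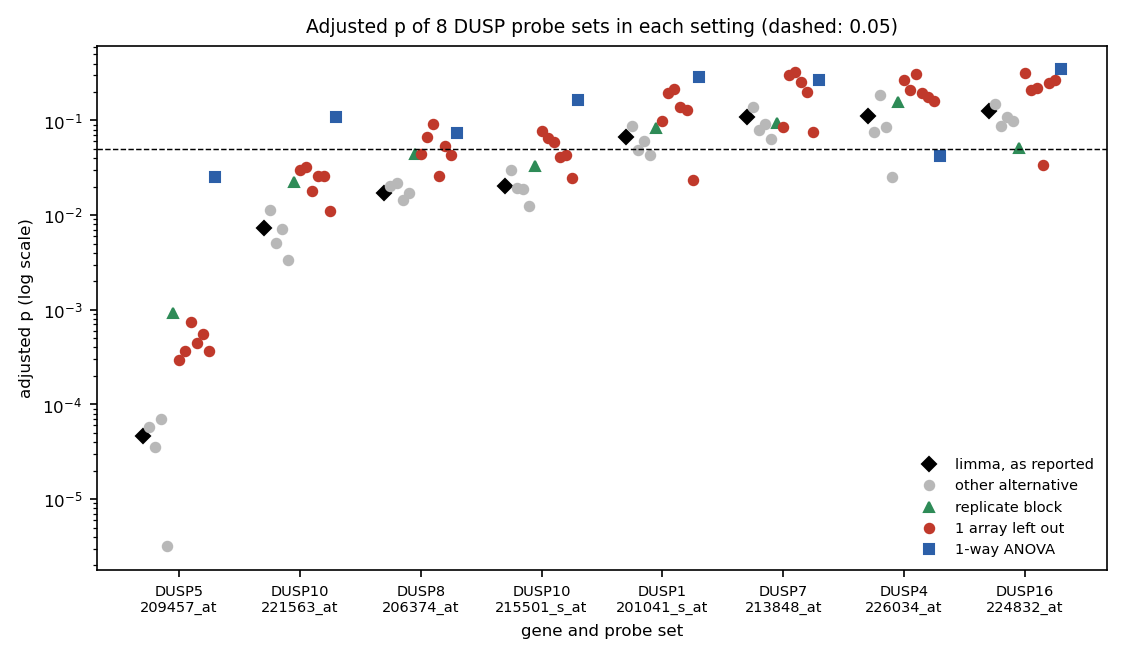
Adjusted p (log axis) of the 8 DUSP probe sets with the lowest limma p, in the limma test as reported (black diamonds), in each alternative (grey, green and red points) and in the 1-way ANOVA (blue squares), with the threshold of 0.05 dashed. DUSP5 lies under the line in every setting, the brighter DUSP10 probe set in all but the ANOVA, and the other probe sets on both sides of it, except DUSP7, which lies above it throughout.

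A list of 20 further phosphatase and related genes, not all of them known to act on MAP kinases, was compared, and all were measured. Of these 1 was higher and 1 lower by the brightest probe set, with a median difference of 0.029. Over all genes 3.45% were higher and 5.46% lower, so these counts are near the background. The count of lower genes was 2 without siKDM1A replicate b and when the probe sets of a gene were averaged. PTPRR, a receptor type tyrosine phosphatase that binds ERK and p38 through a kinase interaction motif, rose 2.56-fold. Its values were 4.04, 3.75 and 3.97 in control and 5.11, 5.11 and 5.59 in siKDM1A cells, moving from below the array median to about its level (limma adjusted p = 0.000975). Its other probe set gave a difference of 1.36 (limma adjusted p = 0.000457), and in the ANOVA the brighter one had an adjusted p of 0.0757. DUSP9, the third cytoplasmic ERK phosphatase beside DUSP6 and DUSP7, was lower. It read 7.38, 7.24 and 7.41 in control and 6.55, 6.46 and 6.66 in siKDM1A cells, so that all siKDM1A arrays were below, with a difference of -0.79 (standard error 0.09, limma adjusted p = 0.00171). STYXL1 and DUSP12, the brightest of the list that did not pass, had differences of -0.13 and 0.16.

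The kinases that the DUSPs act on, and the enzymes upstream of these, were compared in the same way. Over all genes 3.45% were higher and 5.46% lower by the brightest probe set. The counts below are small, and none was tested against these shares. Of 11 measured MAP kinases, MAPK10, the neuronal JNK, was higher, with a log2 difference of 0.61 (limma adjusted p = 0.00382). Its other probe sets had differences of 0.040 and 0.21 and did not pass (limma adjusted p = 0.9 and 0.433), and when the probe sets of a gene were averaged 0 MAP kinases were higher. MAPK12, a p38 kinase, was lower by a difference of -0.35 that just passed (limma adjusted p = 0.0498). This call was lost when control replicate a, b or c or siKDM1A replicate b or c was left out. It was also lost under cyclic loess, with the replicate block and in the ANOVA. The other MAPK12 probe sets had differences of 0.033 and -0.043. MAPK6 and MAPK9, the brightest of those that did not pass, had differences of 0.19 and -0.023. None of 8 measured MAP kinase kinases and RAF kinases passed limma's test (3 had an unadjusted p under 0.05, and 1 was lower without siKDM1A replicate c and with the replicate block). MAP2K2 and MAP2K1, the ERK activators, had differences of -0.030 and 0.20. Of 17 upstream kinases of JNK and p38, MAP3K6 and MAP3K3 were lower, by differences of -0.42 and -0.36 (limma adjusted p = 0.0184 and 0.0355), and 0 were higher. The other probe sets did not pass, with differences of -0.070 and 0.039 for MAP3K6 and of -0.17 and 0.026 for MAP3K3. The count of lower genes was 0 when the probe sets of a gene were averaged and without control replicate a, b or c or siKDM1A replicate a or b, and the count of higher genes was 1 without siKDM1A replicate a. MAP3K13 and TAOK1, the brightest that did not pass, had differences of 0.11 and -0.21.

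Genes that ERK signaling switches on included 6 that rose and 0 that fell. Of 18 measured, 6 were higher by the brightest probe set, with a median difference of 0.29, beside 3.45% of all genes higher. EGR1 and EGR3, immediate early zinc finger factors, rose by 1.12 and 1.15 on the log2 scale, and FOS, the AP-1 partner of JUN, by 0.96 (limma adjusted p = 0.000815, 0.00256 and 0.00892). EGR1 had 7.17, 6.98 and 6.89 in control and 8.15, 8.30 and 7.96 in siKDM1A cells, with no overlap. The ETS factor ETV1 and the early response genes IER3 and IER2 rose by 0.58, 0.54 and 0.37 (limma adjusted p = 0.00875, 0.0065 and 0.0405). All 3 EGR1 probe sets rose, and 2 of 5 ETV1 probe sets. PHLDA1 and EPHA2, the brightest that did not pass, had differences of 0.12 and 0.30. EGR3 lay below the array median on all arrays, and in the ANOVA 1 gene of this list passed.

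Targets and effectors of JNK and p38 showed rises and 1 fall among 18 measured genes. JUN, the transcription factor that JNK phosphorylates, rose from 9.55, 9.55 and 9.54 to 10.97, 10.96 and 10.92, a difference of 1.40 (limma adjusted p = 4.41e-05), and all 4 of its probe sets rose. MEF2C, a p38 substrate, and the stress factor ATF3 were higher by 1.06 and 0.85 (limma adjusted p = 0.000766 and 0.0129). The other ATF3 probe sets had differences of 0.11 and 0.056 with overlapping groups, and of the other MEF2C probe sets 1 rose and 1 did not pass. JUNB and DDIT3 rose by 0.49 and 0.37 (limma adjusted p = 0.017 and 0.039). RPS6KA5, a kinase activated by ERK and p38, was lower, with a log2 difference of -0.64 (adjusted p = 0.0225 by limma), while GADD45A and JUND, the brightest that did not pass, had differences of -0.047 and 0.037. The median was 0.10, beside 0.0069 over all genes. Of all genes 3.45% were higher and 5.46% lower, so 1 fall among 18 genes is near the background. The count of higher genes in this list, 5, was 3 without control replicate a or b or siKDM1A replicate a, 2 without control replicate c and 1 in the ANOVA. The fall of RPS6KA5 did not pass without control replicate b or c, or in the ANOVA (adjusted p = 0.187). Of its other probe sets 1 also fell, with a difference of -0.70 (limma adjusted p = 0.00651). The dimmest lay below the lower quartile on all arrays and did not pass.

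**Figure D4:**
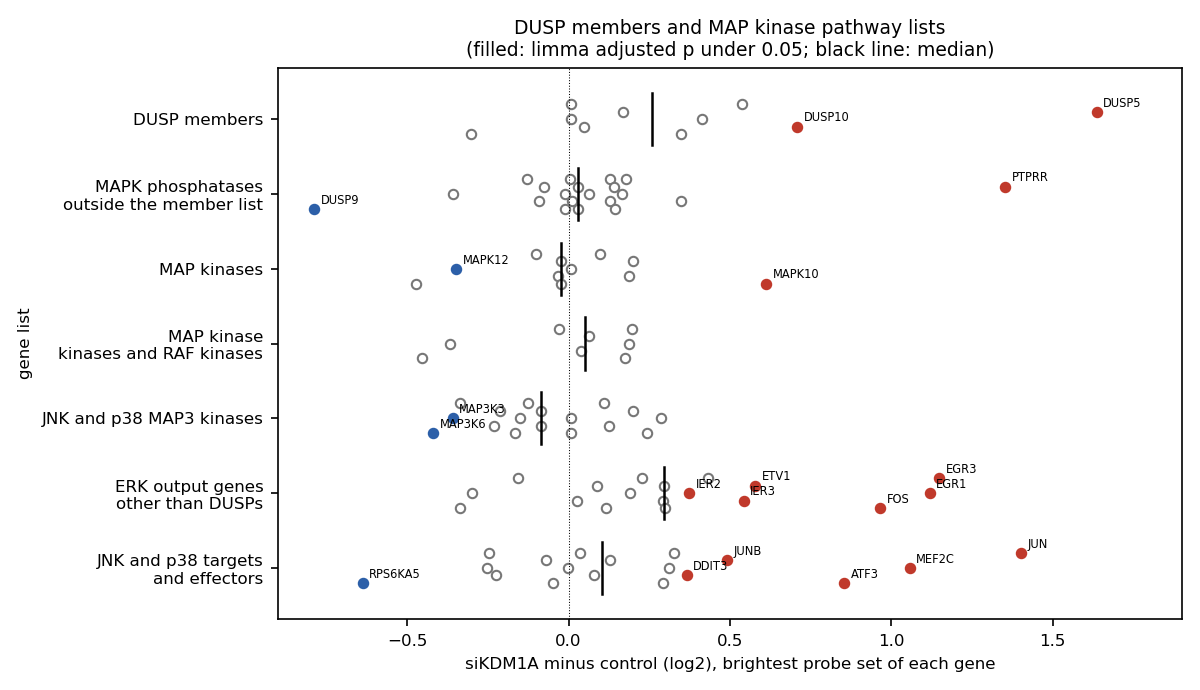
Difference between the groups (siKDM1A minus control, log2) of each measured gene, by its brightest probe set, for the 10 DUSPs and 6 lists of the MAP kinase pathway. Filled points have a limma adjusted p under 0.05 (red higher, blue lower) and black lines mark medians, which are 0.26 for the DUSPs, 0.29 for ERK output genes and -0.086 for the upstream kinases of JNK and p38.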

How the data were processed

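RNA of 3 siKDM1A and 3 control cultures was hybridized to 1 array each. RMA in Partek (no version stated) was the authors' normalization, and the deposited table holds 1 log2 value per probe set and array. Since RMA gives every array the same distribution of probe intensities, a change common to most genes would hardly be seen. Scanner files were not used here, and no detection call was made.

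Testing used limma 3.58.1 under R 4.3.3, two-sided, by lmFit and then eBayes without a trend. P values were adjusted by Benjamini-Hochberg across the 54613 probe sets that remain without 62 controls, and the threshold was 0.05. Whether the replicate letters pair the arrays was not settled, and the main fit did not use them. Genes were named from the platform annotation, and a gene's brightest probe set is that with the highest mean. The text names every member probe set, KDM1A and KDM5A and, of each list, up to 6 called genes in order of p and the 2 brightest others, and beside these DUSP5P1, added with its values in view, and marker genes. The members and lists were chosen with earlier results of these data known. The fit was tested on simulated data. The alternatives changed the scaling (median centring or cyclic loess), the prior (intensity trend, robust), the probe sets (dim ones left out, or another rule per gene), the arrays (each left out in turn, or a replicate block) or the test (the 1-way ANOVA of the study's methods).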

Additional observations from a re-analysis of the deposited data

How the results depend on the processing

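With 1 array left out, the number of DUSP probe sets higher in siKDM1A cells ran from 2 to 5, against 4 with all arrays. The 1-way ANOVA called 1 higher and 1 lower, and 1 gene higher by the brightest probe set (limma: 2). An intensity trend with a robust prior called 1 lower probe set, the dimmest of DUSP4. The differences of DUSP2 turned to -0.021 under median centring and -0.0092 under cyclic loess, and ran from -0.023 to 0.038 with 1 array left out. That of DUSP14 turned to -0.020 under median centring and ran from -0.030 to 0.051. All other DUSP probe sets kept their direction in the 12 alternatives. Whether the replicate letters mark pairs of arrays was not settled. Same-letter arrays correlated at 0.11, 0.23 and -0.13 in their deviations from the group means, and arrays of different letters from -0.32 to 0.18. The 3′ minus 5′ signal of ACTB, a measure of RNA quality, was 1.43, 0.86 and 1.22 in control replicates a, b and c. It was 1.41, 0.72 and 0.91 in siKDM1A replicates a, b and c, so replicate a was highest and b lowest in both groups. With the replicate block the fit called 4 DUSP probe sets higher, as without it. Over the whole array, leaving out 1 array gave 609 to 1103 higher and 694 to 1563 lower probe sets, against 1193 and 2037, and the ANOVA gave 275 and 401. The share of lower calls was 63.1%, with 70.0% under median centring, 54.8% under cyclic loess and 53.3% without control replicate c. Median centring moved the median difference of all probe sets by -0.028 and cyclic loess by -0.0089. Of the pathway lists, the count of ERK output genes higher was 6 and ran from 1 to 7 over the settings, and that of JNK and p38 targets higher was 5 and ran from 1 to 6. The cause of these changes was not tested.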
